A study of Mus musculus with 25 samples.

Results

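The mouse genome carries a large set of repeated miRNA hairpins named mir-297, mir-466, mir-467 and mir-669, and their levels were followed in the ageing mouse brain. Members were taken by name: all precursors in the table whose name begins mmu-mir-297, mmu-mir-466, mmu-mir-467 or mmu-mir-669, which gave 82 of 1193. This rule was set with earlier results of these data known. There were 6 hairpins in the mir-297 family, 29 in the mir-466 family, 17 in the mir-467 family and 30 in the mir-669 family.

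The study profiled small RNA of the brain hemispheres of male mice of the inbred strain C57BL/6 at 5 ages. The groups were 2, 9, 15, 24 and 30 months, with 5 libraries each and a different animal number in every title, and all shared the strain, sex and tissue. Totals of reads counted to precursors ran from 3.78 to 9.52 M (mega-reads) per library, with a median of 5.61 M. The libraries were spread over 6 sequencing lanes. Levels are given as CPM, the reads of a hairpin scaled to a common library size after TMM correction, and each read is a whole short RNA, so no division by length was made.

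A miRNA hairpin is a short fold in a longer transcript that the enzymes Drosha and Dicer cut down to a short mature RNA, which then guides Argonaute to messenger RNAs, mainly through a short stretch near its 5′ end called the seed. The hairpins studied here arose by repeated duplication in rodents and most of them lie in an intron of Sfmbt2, a Polycomb-group gene that is expressed from the paternal allele in extra-embryonic tissue. The intronic cluster is best known from embryonic stem cells and from the placenta, whose growth needs it, and it is not a standard marker of any brain cell type. Hairpins that share a number and a letter, such as mir-467a-1 and mir-467a-2, are named so because they give the same mature miRNA.

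Mature sequences of 8 members were matched in the RefSeq table (GRCm38.p6). All 8 belong to hairpins outside the Sfmbt2 intron, and miR-467f, miR-467h and miR-669n come from hairpins with no read. They are shown for their base composition and describe only these 8, not the intronic hairpins. The capitals mark the seed, bases 2 to 8 from the 5′ end.
miR-466q: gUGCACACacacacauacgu
miR-466i-3p: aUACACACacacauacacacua
miR-466k: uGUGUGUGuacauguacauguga
miR-466j: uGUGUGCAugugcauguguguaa
miR-467f: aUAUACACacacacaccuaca
miR-467g: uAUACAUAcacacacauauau
miR-467h: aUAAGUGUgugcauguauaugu
miR-669n: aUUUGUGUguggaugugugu
No seed was shared between any of these 8. Of the 8, 6 held TGTGTGTG or ACACACAC (U read as T, the mature strand searched for both motifs), against 11 of 1604 mature sequences matched to the table, or 0.686%. The only one of the 8 whose hairpin was abundant enough to test was miR-466q, and none belongs to a hairpin called lower in the results that follow. MiR-466q itself lies at chr3:28419988-28420007 on the plus strand.

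By the GENCODE M21 annotation of GRCm38, 80 of the 82 hairpins had a position, 79 by symbol and mir-297a-1 by a RefSeq synonym. The names mir-466a and mir-466c-3 were not matched. Of the 80, 70 lay inside Sfmbt2 (chromosome 2, 10370510 to 10595253, plus strand), and all 70 were on its plus strand. They filled a stretch of 51.6 kb, from 10466663 to 10518279, overlapped 0 exons, and fell in 1 intron (10461473 to 10523944). That is intron 11 of the principal transcript of Sfmbt2 and intron 10 of another. The median gap between neighbouring hairpins was 209 bases. Copies of mir-467a recurred at a median of 2.46 kb, and the order of a mir-467, a mir-466 and a mir-669 hairpin was found 11 times along the array. The 10 other hairpins were scattered, and 6 of them lay within the span of another protein-coding gene, 1 on that gene's strand: mir-466q (chromosome 3, 28419943 to 28420018), between exons of Tnik, a kinase gene of the synapse.

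Because the 70 intronic hairpins lie behind the start of Sfmbt2, the RefSeq window around its more upstream start (250 bases before to 50 after, GRCm38.p6, plus strand, chr2:10370201-10370500) is printed, with CG pairs in capitals.
Sfmbt2: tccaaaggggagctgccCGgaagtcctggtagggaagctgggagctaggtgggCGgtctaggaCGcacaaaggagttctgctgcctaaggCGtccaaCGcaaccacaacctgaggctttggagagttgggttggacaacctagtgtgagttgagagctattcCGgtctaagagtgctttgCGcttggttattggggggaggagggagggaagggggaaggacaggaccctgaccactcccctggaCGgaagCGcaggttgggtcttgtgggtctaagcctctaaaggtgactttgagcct
It holds 9 CG pairs, and 45.8% of 32851 such windows of mouse genes hold at least as many (median 7). The window of a second Sfmbt2 start (chromosome 2, 10372186 to 10372485) holds 16, and 33.0% of windows hold at least as many. Which start serves the hairpins was not tested. Transcripts of Sfmbt2 itself are not analysed here.

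The hairpins were rare. Together they took 8506 reads over the 25 libraries, 199 to 519 per library, or 0.00583% of all reads counted to precursors. At least 1 read was seen for 76 of them, 28 had a read in every library, and 6 had none (mir-466f-4, mir-467f, mir-467h, mir-669g, mir-669j and mir-669n); 50 stayed under 10 reads in every library. The low-count filter, about 1.78 CPM in at least 5 libraries, left 14 members among 425 tested precursors: 10 of the mir-467 family, 2 of the mir-466 family, 2 of the mir-669 family and 0 of the mir-297 family. The 3 most abundant, mir-669c (928 reads), mir-467d (690 reads) and mir-467e (655 reads), held 26.7% of the members' reads and lie within 3.68 kb of each other.

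Summed over all 82 hairpins, the level was highest in the youngest animals and lowest in the oldest. The 2-month libraries gave 91.2, 98.3, 89.5, 92.7 and 85.8 CPM. The 9-month libraries gave 58.9, 65.0, 62.0, 55.3 and 58.0 CPM, and those of 15 months 52.7, 49.9, 52.0, 49.9 and 53.6 CPM. All 2-month values lay above all 9-month values, and these above all 15-month values. At 24 months the values were 48.4, 52.2, 44.6, 49.6 and 58.5 CPM, and at 30 months 48.1, 42.8, 39.0, 41.9 and 39.6 CPM. Both of these ages overlapped with the age before. Means ± SD (n = 5) were 91.5 ± 4.60, 59.8 ± 3.75, 51.6 ± 1.69, 50.6 ± 5.17 and 42.3 ± 3.62 CPM in order of age. The 30-month mean was 46.2% of the 2-month mean (log2 ratio -1.11), and 64.4% of the whole difference lay between 2 and 9 months. No p-value is given for this sum. In bulk tissue, fewer cells of a type and less RNA per cell cannot be told apart.

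**Figure D1:**
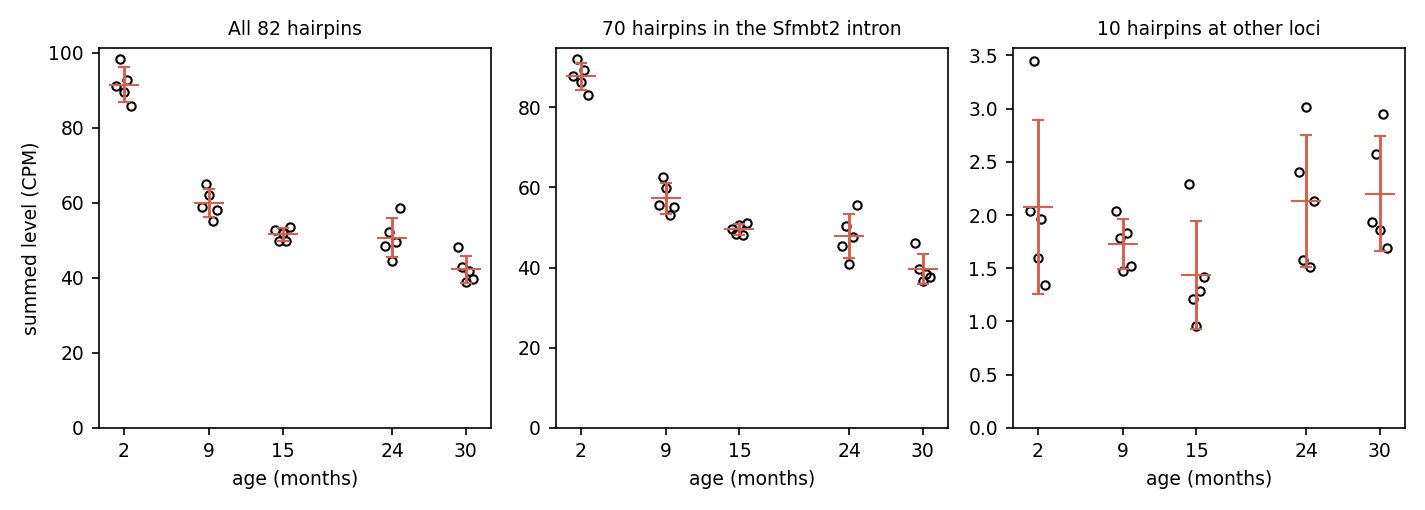
Summed level in CPM (vertical axis, from 0) against age in months for all 82 hairpins, the 70 in the Sfmbt2 intron and the 10 at other loci; points are libraries and red bars are means with SD (n = 5 per age). The first 2 panels drop from 2 to 9 months with no overlap and end lowest at 30 months, whereas the third stays between 0.959 and 3.45 CPM with overlapping ages. Of the 272 reads behind the third panel, 214 belong to mir-466q.

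Each of the 4 families contributed. The mir-467 family, which includes the miR-467 species reported to act on thrombospondin-1, went from 38.0 ± 4.2 to 16.4 ± 1.5 CPM between 2 and 30 months (SD, n = 5; log2 ratio -1.21). The mir-669 family, whose miR-669a is known as a repressor of MyoD, went from 37.0 ± 3.66 to 17.1 ± 2.15 CPM (log2 ratio -1.11). The mir-466 family went from 13.1 ± 2.79 to 7.34 ± 1.44 CPM (log2 ratio -0.84). The mir-297 family is the smallest, and no hairpin of it passed the filter. Its sum was 3.89, 3.65, 2.59, 2.68 and 4.19 CPM in the 2-month libraries and 1.93, 1.59, 1.3, 0.738 and 1.48 CPM in the 30-month ones, which do not overlap (log2 ratio of means -1.27). Only 321 reads in all stand behind the mir-297 family.

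The same difference was seen inside sequencing lanes. In the 4 lanes that held both a 2-month and a 30-month library, 1 of each, the log2 ratio of the summed level at 30 against 2 months was -1.20 in lane 3, -0.90 in lane 5, -1.11 in lane 6 and -1.14 in lane 7.

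Single hairpins were tested with edgeR's quasi-likelihood fit over all 425 precursors, with Benjamini-Hochberg adjustment and a threshold of 0.05. Between 2 and 30 months 9 of the 14 members tested fell and 0 rose. In the same comparison 17.9% of all tested precursors fell and 19.1% rose. The filter itself bears on the members' count: only 4 of the 14 (mir-669c, mir-467d, mir-467e and mir-466q) would have been kept without the 2-month libraries. For 8 of the 14, every 30-month library lay below every 2-month library, and 11.1% of tested precursors show that. With no filter on low counts, 20 of the 76 members with a read fell and 0 rose, where 8.7% of 931 precursors fell.

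The mir-467 family was led by mir-467e (chromosome 2, 10505721 to 10505807). Its level in the 2-month libraries was 6.85, 10.5, 6.18, 6.43 and 6.54 CPM, with 1 library well above the rest. At 9, 15 and 24 months the ranges were 3.56 to 7.60, 2.83 to 4.79 and 3.17 to 5.26 CPM. The oldest animals gave 2.18, 1.59, 2.23, 2.58 and 2.75 CPM, all below every value of every younger age. The log2 fold change of 30 against 2 months was -1.65 ± 0.22 (SE, adjusted p = 3.98e-06).

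The nearby mir-467d (10507630 to 10507714) gave 12.4, 8.31, 8.17, 7.32 and 5.53 CPM at 2 months. At 30 months it gave 3.63, 2.38, 3.34, 2.40 and 3.18 CPM. The groups did not overlap, although the 2-month libraries were widely spread. The fold change was -1.48 ± 0.24 on the log2 scale (SE, adjusted p = 3.59e-05), and the 3 ages between had means of 5.24, 4.13 and 3.42 CPM.

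In the mir-669 family, mir-669c (10509296 to 10509404) was the most abundant member of all. It stood at 9.81, 11.8, 10.6, 10.7 and 7.88 CPM in the youngest animals and at 4.83, 5.15, 4.27, 5.35 and 4.34 CPM in the oldest. These ranges are well apart, while its means at 9, 15, 24 and 30 months (6.23, 5.57, 5.65 and 4.79 CPM) lay close to each other. The log2 fold change of 30 against 2 months was -1.08 ± 0.17 (SE, adjusted p = 2.21e-05).

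The second tested hairpin of that family, mir-669o (10514300 to 10514395), gave 2.04, 3.85, 3.19, 1.97 and 3.52 CPM at 2 months. At 30 months it gave 1.45, 0.793, 0.928, 1.66 and 0.741 CPM. The highest old library came close to the lowest young one, without overlap. It fell by 1.42 on the log2 scale (SE 0.26, adjusted p = 1.59e-04).

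Of the mir-467a copies, 7 of 10 were abundant enough to test. Mir-467a-8 (10495980 to 10496062) gave 2.22, 2.03, 1.79, 1.43 and 3.02 CPM at 2 months and 1.21, 0.793, 0.557, 1.11 and 0.529 CPM at 30 months, with no overlap (log2 fold change -1.39 ± 0.28, SE, adjusted p = 3.72e-04). Mir-467a-2 (10478798 to 10478880) gave 2.04, 2.03, 1.39, 2.32 and 1.84 CPM at 2 months and 1.21, 0.793, 0.743, 0.554 and 0.953 CPM at 30 months, also apart (log2 fold change -1.17 ± 0.31, SE, adjusted p = 0.00431). These copies were each near 1 or 2 CPM, a few reads per library. Reads of the mir-467a copies cannot be assigned to 1 copy with confidence. The 7 are therefore not independent members in the counts over the 14, and differences between copies were not tested. Mir-467a-10 fell as well (-1.57 ± 0.41, adjusted p = 0.00435), from a narrow 2.32 to 2.68 CPM in the young libraries, and 1 old library at 2.18 CPM stood far above the other 4 (0.371 to 0.847 CPM). Mir-467a-5 passed narrowly (-1.0 ± 0.39, adjusted p = 0.0472) and lost the call in 13 of 25 fits that left out 1 library, with DESeq2 (adjusted p = 0.0507), with no filter (adjusted p = 0.0818), with lane as a covariate (-0.90, adjusted p = 0.0851) and without lane 3 (adjusted p = 0.0755). In 1 of the 4 shared lanes, lane 6, mir-467a-5 was higher at 30 months (1.39 CPM) than at 2 months (1.25 CPM). The 3 other copies did not pass: mir-467a-6 (-0.84 ± 0.34, adjusted p = 0.0542), mir-467a-4 (-0.80 ± 0.33, adjusted p = 0.0587) and mir-467a-9 (-0.99 ± 0.43, adjusted p = 0.0759). Some alternative fits did call them lower: 13 for mir-467a-6, 9 for mir-467a-4 and 4 for mir-467a-9.

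**Figure D2:**
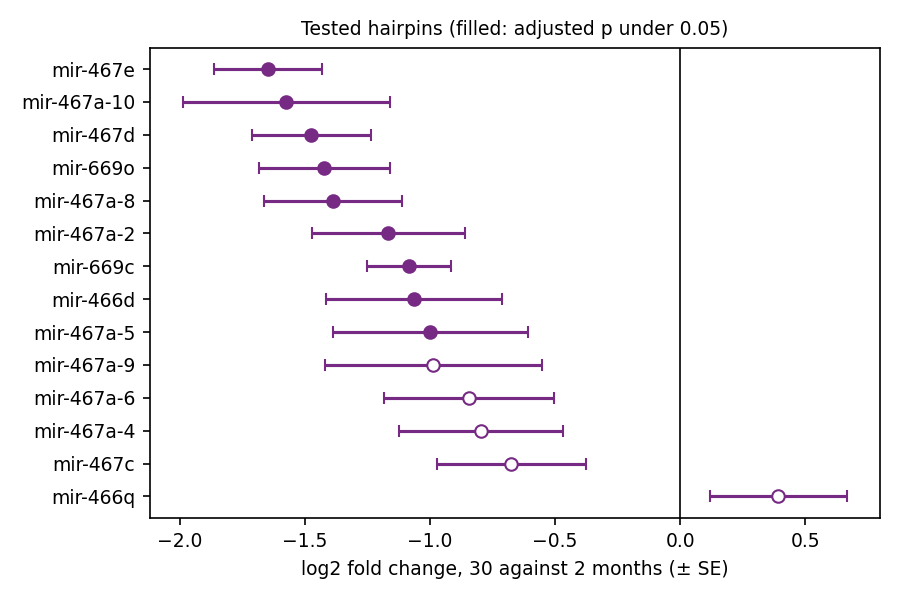
Log2 fold change of 30 against 2 months (horizontal axis, bars are ± SE from the edgeR fit) for the 14 tested hairpins; filled points have an adjusted p under 0.05. The 9 filled points lie between -1.65 and -1.0, and mir-466q alone lies above 0.

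The remaining tested members were mir-467c and the mir-466 hairpins. Mir-466d (10511967 to 10512062) gave 1.67, 3.65, 1.99, 2.86 and 1.01 CPM at 2 months and 0.725, 0.198, 0.928, 2.03 and 1.16 CPM at 30 months. The ranges overlap, and the fall (-1.06 ± 0.35, adjusted p = 0.0201) was not called without the 2-month library of 3.65 CPM (-0.87, adjusted p = 0.0668), nor with only the libraries of the 2 ages in the fit (-1.09, adjusted p = 0.0901). Mir-467c went from a mean of 2.01 to 1.24 CPM and did not pass (-0.68 ± 0.30, adjusted p = 0.0759).

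The exception was mir-466q, the single tested hairpin outside the Sfmbt2 intron, whose mature sequence is printed above. It gave 1.48, 2.23, 1.59, 1.61 and 0.671 CPM at 2 months and 1.53, 1.33, 1.21, 1.05 and 1.14 CPM at 9 months. Its 15-month libraries were its lowest age, with 1.27, 1.01, 0.719, 0.899 and 0.708 CPM. At 24 months it gave 2.08, 1.23, 3.01, 1.38 and 1.15 CPM and at 30 months 1.93, 2.18, 1.86, 2.58 and 1.48 CPM. All 30-month libraries thus lay above all 15-month ones, while they overlapped with those of 2 months. The change from 2 to 30 months did not pass (0.39 ± 0.27, adjusted p = 0.325). The test for any difference among the 5 ages called it with edgeR (adjusted p = 0.0259) and not with DESeq2 (adjusted p = 0.0755). In 3 of the 4 shared lanes its 30-month library was the higher one, and in lane 3 both ages gave 1.48 CPM.

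The step from 2 to 9 months was called for 2 of the 14 members, both lower: mir-669c (log2 fold change -0.67 ± 0.16, SE, adjusted p = 0.0138) and mir-669o (-0.79 ± 0.25, adjusted p = 0.0488). In that comparison 5.88% of tested precursors fell. The mir-669o call is narrow and was lost in 13 of 25 fits without 1 library, whereas mir-669c kept its call in all 25. With only the libraries of the 2 ages in the fit, neither was called (mir-669c -0.66, adjusted p = 0.116; mir-669o -0.78, adjusted p = 0.120). Mir-467d did not pass with edgeR (-0.68 ± 0.22, adjusted p = 0.0683) and passed with DESeq2 (adjusted p = 0.0382).

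From 9 to 15 months 0 of the 14 members and 0% of all tested precursors were called; 0 members had an unadjusted p under 0.05, and DESeq2 called 0. From 15 to 24 months 0 members were called by edgeR or DESeq2, against 0.235% of tested precursors, with 2 members at an unadjusted p under 0.05. These were mir-466q, higher (0.98 ± 0.29, adjusted p = 0.221), and mir-467a-8, lower (-0.70 ± 0.27, adjusted p = 0.401). From 24 to 30 months 1 member fell, mir-467e (-0.88 ± 0.22, adjusted p = 0.0190), where 2.59% of tested precursors fell. Without the fifth 24-month library its adjusted p was 0.0507 (-0.81). Whether these steps differ from one another in size was not tested.

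With age as a number, 11 of the 14 members had a slope called below 0 and 0 above, where 16% of tested precursors had one below 0 and 19.5% one above. Per 12 months, mir-467d changed by -0.62 ± 0.09 on the log2 scale (SE, adjusted p = 9.45e-06), mir-467e by -0.56 ± 0.09 and mir-669c by -0.40 ± 0.07. Such slopes assume a straight line, whereas 64.4% of the difference in the summed level lay between 2 and 9 months. The steepest slope of a single hairpin was that of mir-467a-10, at -0.80 ± 0.17 per 12 months, while the 10 mir-467a copies summed gave -0.43 ± 0.05. Reads of these copies cannot be assigned to 1 copy with confidence, and differences between copies were not tested. The slope of mir-466q was 0.25 ± 0.12 and did not pass (adjusted p = 0.115). A difference of any shape among the 5 ages was called for 8 members (mir-467e, mir-669c, mir-467d, mir-669o, mir-467a-8, mir-467a-10, mir-466q and mir-467a-2) and for 32.7% of tested precursors. DESeq2 called 7, leaving out mir-466q and mir-467a-2. Mir-467a-2 had an adjusted p of 0.0456 with edgeR and 0.0979 with DESeq2. Mir-467a-9 was called only by DESeq2 (adjusted p = 0.0448, edgeR 0.113). The filter bears on the slope count and on the count for any difference, as on those against 2 months. Only 4 of the 14 members would have been kept without the 2-month libraries.

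Reads of near-identical hairpins cannot be assigned to 1 copy with confidence, so hairpins sharing a number and letter were also summed and fitted again with all other precursors. There were 44 such names, 9 of them with more than 1 hairpin. For the 10 copies of mir-467a, the shares of the copies varied between libraries by about as much as counting noise gives (chi-square per degree of freedom 1.09), with 151 to 200 reads per copy. The 12 copies of mir-669a gave 0.972, with 62 to 155 reads each. No pair of members had identical counts in all libraries.

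Summed, mir-467a was the most abundant name of the set. Its 2-month libraries gave 19.6, 18.4, 19.7, 16.4 and 19.9 CPM and its 9-month libraries 12.5, 13.8, 12.7, 11.5 and 11.4 CPM. Those of 30 months gave 11.1, 10.3, 7.61, 8.31 and 7.83 CPM. The youngest group lay above all others. The log2 fold change was -1.08 ± 0.11 at 30 months (SE, adjusted p = 2.01e-07) and -0.59 ± 0.11 at 9 months (adjusted p = 0.00129), both against 2 months.

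The 12 copies of mir-669a, of which 0 passed the filter singly, gave 10.7, 14.4, 18.7, 21.3 and 15.3 CPM at 2 months. At 30 months they gave 9.43, 6.34, 6.13, 6.28 and 8.15 CPM. The young libraries spread over a range of almost the size of their lowest value, and the groups did not overlap (-1.16 ± 0.20, adjusted p = 5.42e-05). The pair mir-669d went from 2.15 ± 0.820 to 0.652 ± 0.323 CPM (SD, n = 5; -1.80 ± 0.33, SE, adjusted p = 1.19e-04). The pair also fell between 24 and 30 months (-1.15 ± 0.34, adjusted p = 0.0362), a comparison not refitted for names in other settings. It had only 2 to 5 reads in each 30-month library. Its 2 hairpins gave unlike values between 2 and 30 months: in the fit with no filter, mmu-mir-669d fell (1.35 to 0.130 CPM, -3.14 ± 0.57, adjusted p = 1.74e-04), while mmu-mir-669d-2 did not pass (0.800 to 0.521 CPM, -0.74 ± 0.50, adjusted p = 0.374). The difference between the pair's hairpins was not tested. The 8 copies of mir-466b went from 2.84 ± 0.986 to 1.04 ± 0.445 CPM (-1.48 ± 0.32, adjusted p = 8.32e-04), and the 3 of mir-466c from 2.10 ± 0.585 to 1.04 ± 0.475 CPM (-1.04 ± 0.38, adjusted p = 0.0340). The mir-466c call was lost in 6 of 25 fits without 1 library, with lane as a covariate (-1.01, adjusted p = 0.0598), without lane 3 (adjusted p = 0.0503) and with no filter (adjusted p = 0.0515).

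In all, 10 of 12 tested names fell between 2 and 30 months and 0 rose, where 19.1% of all entries tested in that fit fell and 19.4% rose; mir-467c and mir-466q did not pass. The filter bears on this count too: 8 of the 12 names would have been kept without the 2-month libraries, and mir-466c, mir-466d, mir-467c and mir-669o would not.

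**Figure D3:**
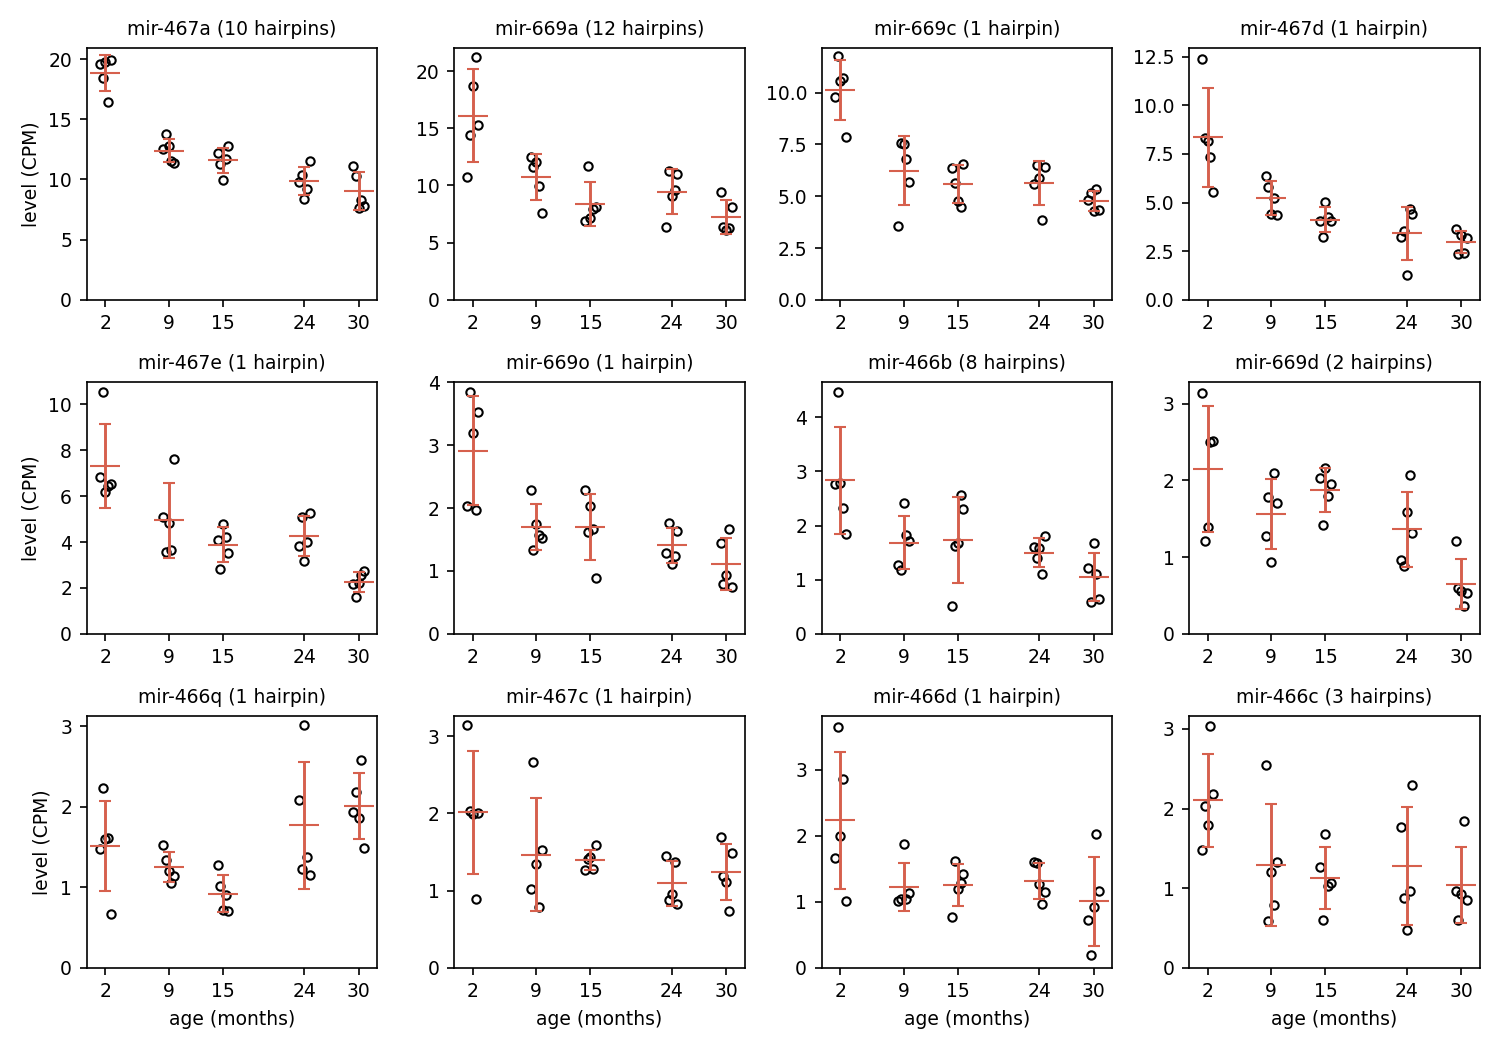
Level in CPM (vertical axes, each from 0 with its own scale) against age in months for the 12 tested names, copies of a name summed; points are libraries and red bars are means with SD (n = 5 per age). The 30-month libraries of mir-467a and mir-669a stay below their 2-month libraries, and mir-466q has its lowest mean at 15 months.

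The difference was also read along the array. Reads of near-identical copies cannot be assigned to 1 position with confidence, so its stretches may share reads and are not independent. Cut into 5 stretches of 10.3 kb, the summed level at 30 months was 47.5%, 48.8%, 47.8%, 37.9% and 48.5% of that at 2 months, in order from the first hairpin. All 5 stretches had every 30-month library below every 2-month library. They are parts of the sum over the 70 intronic hairpins, in which these ages did not overlap either. Each stretch pools 10 to 19 hairpins, so the 11.1% of precursors tested singly that show this is not a like measure. Whether the fall differs between stretches was not tested. The fourth, with mir-467d and mir-467e, went from 25.6 to 9.70 CPM; the others held 11 to 19 hairpins and started from 12.1 to 22.3 CPM. The 70 intronic hairpins together went from 87.7 ± 3.39 to 39.7 ± 3.8 CPM (log2 ratio -1.14).

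**Figure D4:**
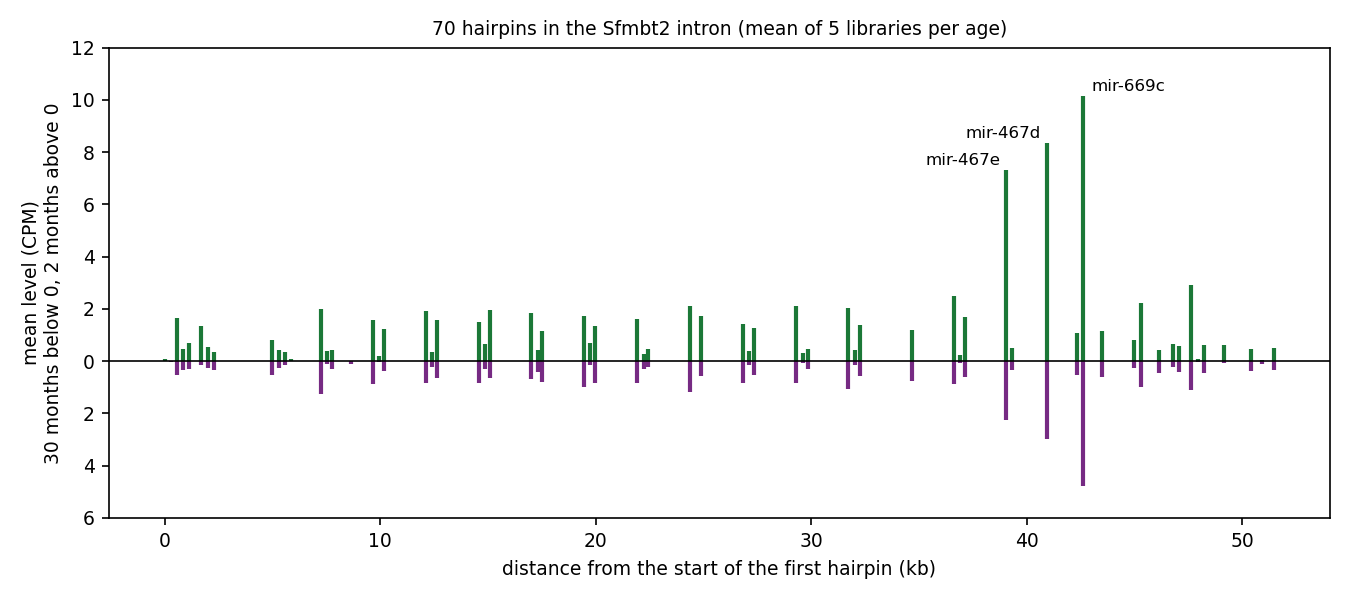
Mean level in CPM (vertical axis, n = 5 libraries per age) of the 70 intronic hairpins against their distance in kb from the start of the first one; green bars above 0 are 2 months and purple bars below 0 are 30 months. The 3 tallest bars, mir-467e, mir-467d and mir-669c, stand close together near 40 kb, with the low bars of mir-466p and mir-297c between them. Low bars fill the rest.

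The 10 hairpins at other loci had few reads. Their sum was 2.04, 3.45, 1.59, 1.97 and 1.34 CPM at 2 months and 1.93, 2.58, 1.86, 2.95 and 1.69 CPM at 30 months, which overlap (means 2.08 and 2.20 CPM, log2 ratio 0.09). Of their 272 reads, 214 belong to mir-466q. The other 9 went from 0.560 to 0.195 CPM on 58 reads in all. Whether the change differs between the intron and other loci was not tested.

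The 68 hairpins below the filter held the rest of the reads. Their sum went from 43.0 ± 3.23 CPM at 2 months to 28.9 ± 1.87 at 9 months and 20.2 ± 2.19 at 30 months (SD, n = 5), with no overlap between 2 and 9 months. The most abundant of them were mir-467a-3 (1.85 ± 0.555 to 0.680 ± 0.233 CPM), mir-467a-7 (1.43 ± 0.384 to 0.818 ± 0.421 CPM) and mir-669a-5 (1.96 ± 0.320 to 0.658 ± 0.298 CPM). Of the 76 members with a read, 69 (90.8%) had a lower mean at 30 than at 2 months, and among the 855 other precursors with a read 40.6% did. This count takes near-identical copies as separate members: 47 of the 82 hairpins belong to the 9 names with more than 1 hairpin. The 7 without a lower mean were mir-466q, mir-669m-1, mir-466b-5, mir-669i, mir-466f-1, mir-669k and mir-466l, the last with 1 read.

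Outside the set, 5 other precursors of the table carry TGTGTGTG in a mature sequence. They are shown with the motif in capitals, to set their levels beside that of mir-466q, the single tested member with a printed sequence. Their values say nothing of the members that fell.
miR-574-5p: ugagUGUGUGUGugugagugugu
miR-3082-5p: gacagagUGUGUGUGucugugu
miR-32-3p: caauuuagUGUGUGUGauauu
miR-672-5p: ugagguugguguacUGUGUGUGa
miR-1187: uaUGUGUGUGuguauguguguaa
Reads of these precursors are counted over both arms. Of the 4 tested, 0 were called between 2 and 30 months by edgeR or DESeq2, and 0 had an unadjusted p under 0.05. Mir-574 gave 46.7 ± 9.44 and 50.1 ± 6.72 CPM at 2 and 30 months (SD, n = 5; log2 fold change 0.10 ± 0.13, SE, adjusted p = 0.584). Mir-3082 stood at 12.7 CPM at both ages (0.00 ± 0.11, adjusted p = 0.989). Mir-32 (-0.10 ± 0.10, adjusted p = 0.468) and mir-672 (0.19 ± 0.19, adjusted p = 0.475) did not pass either, and mir-1187 had 6 reads in all. No difference between them and mir-466q was tested.

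Markers of cell types were read in the same libraries. All 10 hairpins of the neuron list were detected in every library, with a summed level of 67924 to 89150 CPM. The liver marker mir-122 stayed between 0.160 and 5.99 CPM. Both hairpins of the oligodendrocyte list together were higher at 30 months (3524 to 4432 CPM) than at 2 months (2447 to 2874 CPM), without overlap. The 3 hairpins of the list for microglia and blood leukocytes were lower (914 to 1076 against 1087 to 1244 CPM), also without overlap. The lists for erythroid cells, choroid plexus, epithelium and muscle overlapped between these ages. The part of these shifts in the members' levels was not tested.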

How the data were processed

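The deposited table, made by the authors, holds raw counts for 1193 precursor hairpins in 25 libraries, with both arms together. Per the submitters' processing notes, bcl2fastq 1.8.4, Trimmomatic 0.36 and SAMtools 1.3.1-9 were used. The build, the aligner, the counter and how it treated strand and multiply matching reads were not given in the sources used here, and such choices set how reads are split between near-identical hairpins. Per the labels' protocols, libraries came from total RNA with the TruSeq small RNA kit. Without molecular identifiers PCR copies are not independent molecules, so chi-square values cover counting error only. Each title carries its own animal number, so libraries were taken as separate animals. Between 2 libraries of 1 age, chi-square per degree of freedom was 19.6 to 304 over 50 pairs, and no pair was merged. Lanes come from the column names.

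Ages were taken from the labels. In R 4.3.3, edgeR 4.0.16 (filterByExpr, TMM factors 0.952 to 1.04, quasi-likelihood F tests, 1 mean per age, 25 libraries in 1 fit) tested 425 precursors and set aside 768. A fit linear in age gave slopes per 12 months. P-values were adjusted by Benjamini-Hochberg over all precursors tested (threshold 0.05), and the SE is the log2 fold change divided by the square root of F. The fit was tested on simulated data. DESeq2 1.42.0, other scalings, other filters, lane and leaving out each library were alternatives. Every tested member was named, with values per library for the strongest and most abundant. The members, lists and tests were chosen with earlier results of these data known. Summing by name was chosen after the tables were read. Tables and plots used Python 3.11.15 and matplotlib 3.10.9. The marker lists name precursors known to be enriched in a cell type.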

Additional observations from a re-analysis of the deposited data

Results flagged for a closer look

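For each tested hairpin and age, the library farthest from the other 4 was compared with the range of its group, and 2 of 70 groups had a library beyond the critical ratio of 0.71. Chance gives about 1 in 20 groups, which would be 3.5 here. The second 2-month library stood at 10.5 CPM for mir-467e, where the other 4 gave 6.18 to 6.85 CPM. The fifth 24-month library stood at 1.81 CPM for mir-467a-8, where the other 4 gave 0.634 to 0.962 CPM.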

How the results depend on the processing

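No paired analysis was possible, since each title carries its own animal number and each library was taken as a separate animal of 1 age. Lane, from the column names, was fitted as a covariate instead and left 8 members lower at 30 than at 2 months. Sums over hairpins with 1 mature sequence were not run, since the sequence table matched only 1 tested member; sums by name, and sums by location or filter, were chosen after seeing the data. Members lower at 30 than at 2 months (9 in the report) numbered 20 with no filter, 3 under a stricter filter of at least 20 reads in 10 libraries, and 8 to 12 when 1 library was left out. Under the stricter filter few members were tested. From 2 to 9 months (2 in the report) the count was 1 with upper-quartile scaling, 1 with no filter, 0 with only the libraries of the 2 ages, 1 without lane 3, and 1 to 3 when 1 library was left out. From 24 to 30 months it was 0 to 1 when 1 library was left out. Any difference among the ages (8) gave 3 under the stricter filter. Slopes on age (11) gave 19 with no filter and 3 under the stricter one. Names (10) gave 5 under the stricter filter, and alternative fits of names were run only for 30 against 2 months. From 9 to 15 and from 15 to 24 months the count was 0 in every setting run. The log2 ratio of the sum (-1.11) was -1.16 to -1.09 when 1 library was left out, and 0.085 over only the members outside the intron. Of the 272 reads of those outside, 214 belong to mir-466q, and the other 9 hairpins gave -1.52 on 58 reads. No single tested hairpin changed direction between 2 and 30 months in any setting run. Depth limits single hairpins: 64 of 82 had a mean under 1 CPM.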
